A study of Mus musculus with 74 samples.

Results

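The data described here are the dendritic cells sorted from the spleen in a bulk RNA-seq series of tumor-bearing mice, compared between the ages of 12 and 3 months. The comparison took the spleen dendritic cell libraries whose titles give 12 months (n = 3) and those whose titles give 3 months (n = 3), which is 6 of the 74 libraries of the series. All mice were C57BL/6J from the Jackson Laboratory, and both ages carried subcutaneous tumors of MC38, a mouse colon carcinoma line, up to harvest on day 10, so no tumor-free mouse enters the comparison. Each library came from 1000 cells sorted 2 times in a row as CD45+CD11b+CD11c+MHCII+ and was prepared by Smart-seq2, which copies whole transcripts from few cells. Each age holds 1 male library, replicate 1, and 2 female libraries, replicates 3 and 4, and the test fitted sex as a covariate. The age tag of 3-month replicates 3 and 4 reads 12 months against their titles. The titles were followed. Fits without these 2 libraries, or with them counted as 12 months, both leave replicate 1 as the 1 library at 3 months. With sex fitted, their age effect is male replicate 1 of 12 months against male replicate 1 of 3 months. Their spread comes only from the female libraries counted as 12 months, and replicate 1 is assumed to vary like those. For the age difference, effect sizes of these fits are therefore given. Nothing states that the libraries came from separate mice, so p-values measure only the spread between these libraries.

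Conventional dendritic cells take up antigen and present it to T cells on MHC molecules. The spleen holds the cDC1 type, which excels at cross-presentation to CD8 T cells and carries Xcr1 and Clec9a, and the cDC2 type, which carries CD11b and Sirpa, depends on Irf4 and Notch2 and primes CD4 T cells. A gate on CD11b, CD11c and MHCII also borders on monocyte-derived cells, plasmacytoid dendritic cells (pDC) and some B cells, in particular the CD11c+ age-associated B cells known to build up in the spleen of ageing mice, which express Tbx21 and Fcrl5. Throughout, levels are in CPM, which divides each count by the depth of its library, 3 values in a row are replicates 1, 3 and 4 in that order, and the words rose and fell are kept for genes past 0.05 in edgeR's quasi-likelihood test with Benjamini-Hochberg adjustment.

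The 6 libraries held 2924963 to 6474481 counts, and 18372 to 21343 genes had a count. Mitochondrial transcripts took 9.39%, 8.54% and 6.93% of the counts in 12-month replicates 1, 3 and 4 and 5.48%, 5.66% and 6.96% in 3-month replicates 1, 3 and 4. This share was higher in the first 2 of the 12-month libraries, and its part in the results was not tested. The cDC core list, 16 genes such as Zbtb46, Flt3 and Itgax, summed to 6375 to 7504 CPM in these libraries, against 2301 to 3314 CPM in spleen macrophages and at most 830.9 CPM in spleen T cells. Zbtb46, the transcription factor that marks conventional dendritic cells, stood at 214, 158 and 172 CPM at 12 months and at 230, 183 and 166 CPM at 3 months. The genes of the gate did not pass the test. Itgam, which encodes CD11b, had a log2 fold change of 0.25 (SE 0.17), Itgax, which encodes CD11c, of -0.13 (SE 0.12), and H2-Ab1 of -0.17 (SE 0.12). Although the gate asks for CD11b, cDC1 transcripts were also present: Xcr1 stood at 117, 89.5 and 106 CPM at 12 months and at 146, 299.5 and 52.4 CPM at 3 months.

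The test covered 12650 genes, of which 56 rose (0.443%) and 19 fell (0.15%) at 12 months, together 0.593%. The risen genes spanned log2 fold changes of 0.60 to 6.17 and the fallen genes of -0.65 to -2.13. In all 75 the libraries of the ages did not overlap, and over all genes tested 8.81% were without overlap in the higher direction and 8.18% in the lower. The genes that rose included the inhibitory IgG receptor gene Fcgr2b, the surface marker gene Adgre1 and the B cell genes Bank1 and Fcrl5, and 48 of the 56 were in none of the lists used here. Those that fell included Cd209a and Clec12a of the cDC2 list, Ly6c2 and Ccr2 of the classical monocyte list and the chemokine genes Ccl5 and Ccl6. Another 5 of the risen genes are predicted genes and are not named. The count depended on single libraries: it was 444 without 3-month replicate 4, and it was 0 without 12-month replicate 4 (1515 genes at an unadjusted p under 0.05), 14 without 12-month replicate 3, 8 without 12-month replicate 1 and 7 without 3-month replicate 1. Without replicate 1 of either age, the sex term takes up the other male library. Those fits thus compare only female replicates 3 and 4 of each age. Without both libraries of conflicting labels, the age effect rests on male replicate 1 of each age. The median log2 fold change there was 1.72 over the 56 risen genes and -0.98 over the 19 fallen genes. With these libraries counted as 12 months, the age effect again rests on replicate 1 of each age, and the medians were 1.75 and -0.96. Neither fit has a measured spread at 3 months, so no count is given for them. Every one of the 75 kept its direction in each of these fits. As the libraries of the ages did not overlap in any of the 75, the direction could hardly change, so this is no measure of stability.

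Transcripts of B cells moved with age in the same libraries. The 20 B cell markers summed to 4823, 6903 and 6175 CPM at 12 months against 1446, 1279 and 3530 CPM at 3 months, with means of 5967 ± 1056 and 2085 ± 1255 CPM (SD, n = 3 each) and a ratio of 2.86. Every 12-month library lay above every 3-month library, and the exact two-sided permutation test gave p = 0.1, the smallest that 3 against 3 libraries allow (adjusted p = 0.25 over 15 lists of markers of other cells). The 12 immunoglobulin constant genes summed to 10635, 7503 and 7390 CPM against 2864, 1753 and 6050 CPM, again without overlap. Plasma cell markers differed less, with 2053, 1930 and 2179 CPM against 1593, 1506 and 1890 CPM. The 3-month library with the most such transcripts was replicate 4 on all 3 sums. For scale, the B cell sum was 223 to 482 CPM in tumor dendritic cells and 1676 to 5611 CPM in spleen macrophages. In bulk samples, fewer cells of a type and less RNA per cell cannot be told apart.

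**Figure D1:**
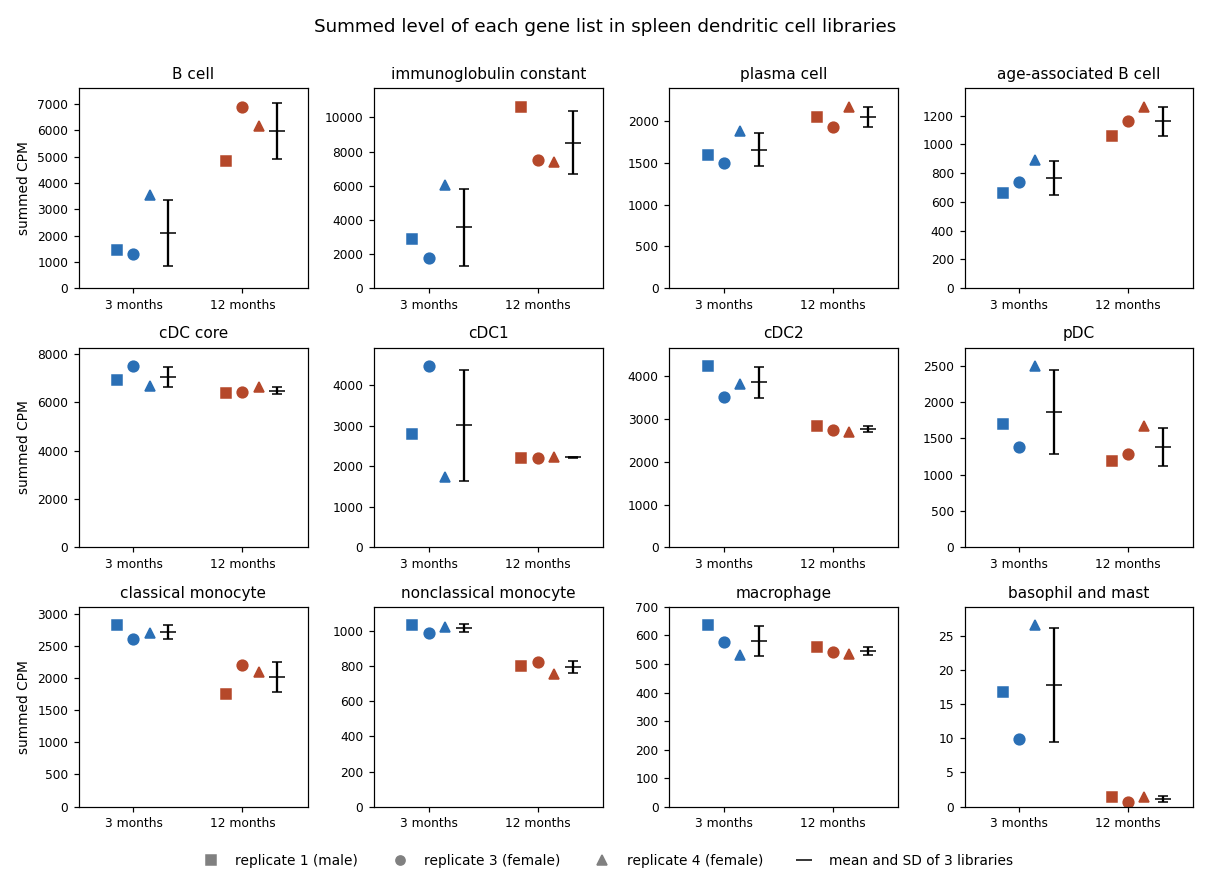
Summed CPM (vertical axis, from 0) of 12 gene lists in the 3 libraries of each age, with the mean and SD beside the points and a symbol for each replicate. The B cell sums lie between 4823 and 6903 CPM at 12 months and between 1279 and 3530 CPM at 3 months. The cDC core, cDC2, monocyte, and basophil and mast cell sums are lower at 12 months in every library.

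Gene by gene, all 20 B cell markers had positive fold changes (median log2 1.62, against -0.00 over all genes tested), 16 without overlap, but 1 passed the test. That gene was Bank1, a scaffold protein of B cell receptor signalling. It stood at 344, 479 and 469 CPM at 12 months and at 82.9, 84.1 and 192 CPM at 3 months (log2 1.89, SE 0.26, adjusted p = 0.0283). Cd22, Ms4a1, Cd79a and Pax5 were also without overlap but did not pass, with adjusted p-values of 0.174, 0.198, 0.414 and 0.17. In each, 3-month replicate 4 stood apart from the other 3-month libraries, as in the B cell sum.

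Among immunoglobulin genes, Ighg3, the constant region of IgG3, was the one of 10 tested that rose. Its levels were 14.4, 27.8 and 48.6 CPM at 12 months and 4.16, 1.37 and 4.48 CPM at 3 months (log2 2.99, SE 0.48, adjusted p = 0.0169). Ighm, the IgM heavy chain, was the most abundant, with 4730.3, 3651 and 3377 CPM against 1642, 1047 and 3088 CPM, and an adjusted p of 0.543. Ighg2b was dominated by 1 library: 12-month replicate 1 held 2067 CPM, and the other 5 libraries held 7.84 to 298 CPM. The same library had the highest Jchain, the joining chain of secreted antibodies, with 330.2 CPM against 37.9 to 158 CPM in the others. None of the 13 plasma cell markers tested passed.

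From the age-associated B cell list, 3 of 13 genes tested rose and none fell (median log2 0.55). The list is not specific to B cells. It summed to 1061 to 1264 CPM at 12 months and 661 to 892 CPM at 3 months, against 1546 to 2700 CPM in spleen macrophages and 990 to 1516 CPM in tumor dendritic cells. Fcrl5, an Fc receptor-like protein of B cells, stood at 76.5, 83.5 and 91.8 CPM at 12 months and at 8.32, 6.50 and 25.5 CPM at 3 months (log2 2.66, SE 0.42, adjusted p = 0.0465). Nt5e, which encodes the ectoenzyme CD73, stood at 46.5, 44.7 and 47.8 CPM against 6.24, 10.3 and 17.8 CPM (log2 2.09, adjusted p = 0.00894). Zeb2, a transcription factor also used by myeloid cells, stood at 293, 359 and 345 CPM against 150, 174 and 242 CPM (log2 0.85, adjusted p = 0.0177). Tbx21, which encodes T-bet, did not pass: 12-month replicate 1 (34.4 CPM) fell below 3-month replicate 4 (40.2 CPM). Levels in other sorts differed between these genes. Fcrl5 averaged 0.716 CPM in tumor dendritic cells and 24.8 CPM in spleen macrophages, whereas Zeb2 averaged 273 and 437 CPM there. Nt5e averaged 39.0 CPM in tumor dendritic cells, 9.43 CPM in spleen macrophages and 172 CPM in spleen T cells.

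Further risen genes with known roles in lymphocytes were Ikzf3, the transcription factor Aiolos, at 161, 181 and 175 CPM against 28.3, 35.2 and 68.6 CPM (log2 2.02, SE 0.24), and Lax1, an adaptor of antigen receptor signalling, at 37.9, 90.3 and 57.8 CPM against 9.76, 17.1 and 25.6 CPM (log2 1.85, SE 0.26). S1pr3, a receptor for sphingosine-1-phosphate, stood at 23.5, 41.8 and 31.8 CPM against 3.04, 4.10 and 9.88 CPM (log2 2.54, SE 0.37). Each of these genes again had its highest 3-month level in replicate 4. The gene Cpm, which encodes a carboxypeptidase, had one of the largest fold changes (log2 3.42, SE 0.68), from 0.48, 1.03 and 2.63 CPM to 10.1, 27.0 and 5.66 CPM. Ets1 and Bach2, transcription factors of lymphocytes, had log2 fold changes of 1.16 (SE 0.19) and 1.21 (SE 0.24). Ets1 stood at 311, 395 and 292 CPM at 12 months and at 108, 141 and 214 CPM at 3 months. It averaged 26.6 CPM in tumor dendritic cells, 329 CPM in spleen macrophages and 2441 CPM in spleen T cells. Gimap7 and Gimap8, neighbouring GTPase genes of lymphocytes on chromosome 6, had log2 fold changes of 1.68 (SE 0.26) and 1.98 (SE 0.33).

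The gene with the smallest p was Fcgr2b, on the minus strand of chromosome 1 (chr1:170958617-170976547, GRCm38), which encodes the inhibitory receptor for IgG carried by B cells and myeloid cells. It stood at 171, 239 and 296 CPM at 12 months and at 59.7, 86.2 and 108 CPM at 3 months (log2 1.49, SE 0.15, adjusted p = 0.00104). The lowest 12-month library was above the highest 3-month library. Across 16 other fits its log2 fold change ran from 1.23 to 1.59. It did not pass in a fit of all 4 dendritic cell groups (adjusted p = 0.19), with a B cell covariate (0.301) or without 12-month replicate 4 (0.0623). The fits with the conflicting libraries counted as 12 months, or left out, compare replicate 1 of each age. Fcgr2b had log2 fold changes of 1.57 and 1.55 there, and no test result is read from these 2 fits.

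Adgre1, which encodes the F4/80 antigen of macrophages and some dendritic cells, also rose. Its levels of 255, 224 and 231 CPM at 12 months exceeded those of 134, 86.2 and 113 CPM at 3 months (log2 1.12, SE 0.15, adjusted p = 0.00654). Of 13 macrophage markers tested, Adgre1 alone rose and Hpgd alone fell, 4 were without overlap in the lower direction, and the summed level was 534 to 561 CPM at 12 months against 532 to 637 CPM at 3 months. Fcgr2b and Adgre1 averaged 1273 and 148 CPM in tumor dendritic cells, and 3.17 and 0.882 CPM in spleen T cells.

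**Figure D2:**
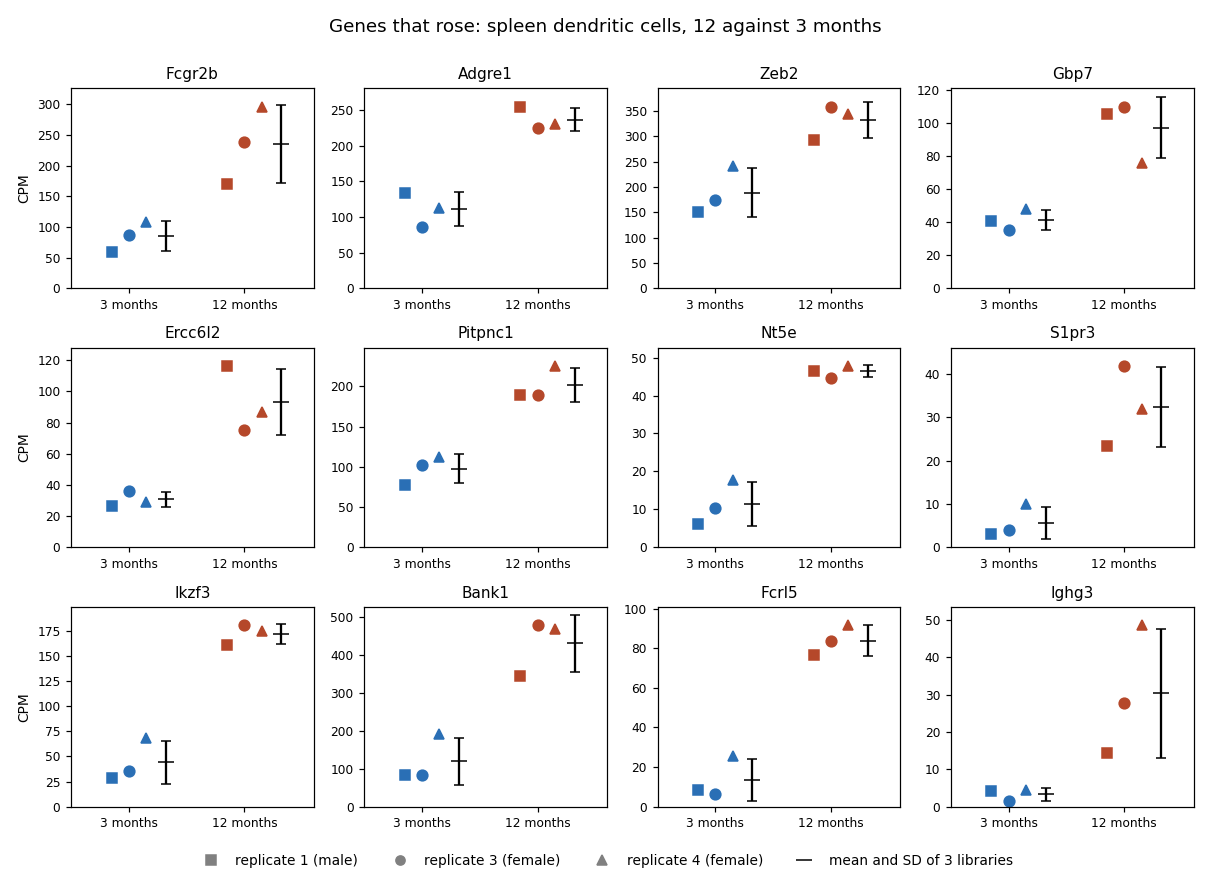
CPM (vertical axis, from 0) of 12 genes that rose, in the 3 libraries of each age, with mean and SD. Fcgr2b at 12 months runs from 171 to 296 CPM against 59.7 to 108 CPM at 3 months. The triangle of 3-month replicate 4 is the highest 3-month point in every gene shown except Adgre1 and Ercc6l2.

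The 3-month libraries alone also differed in B cell transcripts, and the genes that rose were compared across them by a measure chosen after seeing the data: the level in replicate 4 minus the mean of replicates 1 and 3, on the log2(CPM + 1) scale. Its median was 0.04 over all genes tested, 1.43 over the B cell markers, 0.64 over the 56 risen genes and -0.07 over the 19 fallen genes. The measure is not particular to B cell genes. Other lists departed from 0 in both directions, with medians of 0.67 over 10 pDC genes, -1.21 over 16 cDC1 genes and -0.83 over 27 type I interferon genes. Of the risen genes, 47 (83.9%) were highest in replicate 4 among the 3-month libraries, against 36.0% of all genes tested and 26.3% of the fallen genes. Fcrl5 (1.66), S1pr3 (1.26), Bank1 (1.19), Ikzf3 (1.09) and Nt5e (1.06) were higher there. Fcgr2b (0.59) and Zeb2 (0.58) lay between, and Adgre1 (0.07) and Ercc6l2 (-0.08) were not higher. Ercc6l2, a DNA helicase-like protein, rose from 26.6, 36.2 and 29.3 CPM to 116, 75.5 and 86.9 CPM. The risen genes with a difference of at most 0.5 numbered 19 of 56.

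With the log2 B cell sum as an added covariate, none of the 75 genes passed the test, 11 other genes did, and 804 genes had an unadjusted p under 0.05. All 75 kept their direction. The median log2 fold change of the risen genes went from 1.46 to 0.82 and that of the fallen genes from -1.01 to -0.77. Fcgr2b had 1.23 (SE 0.34), Adgre1 0.78 (SE 0.34), Bank1 0.68 (SE 0.31), Zeb2 0.36 (SE 0.30) and Ercc6l2 1.95 (SE 0.47) in that fit. The B cell sum does not overlap between the ages, so age and B cell content cannot be told apart in these 6 libraries.

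**Figure D3:**
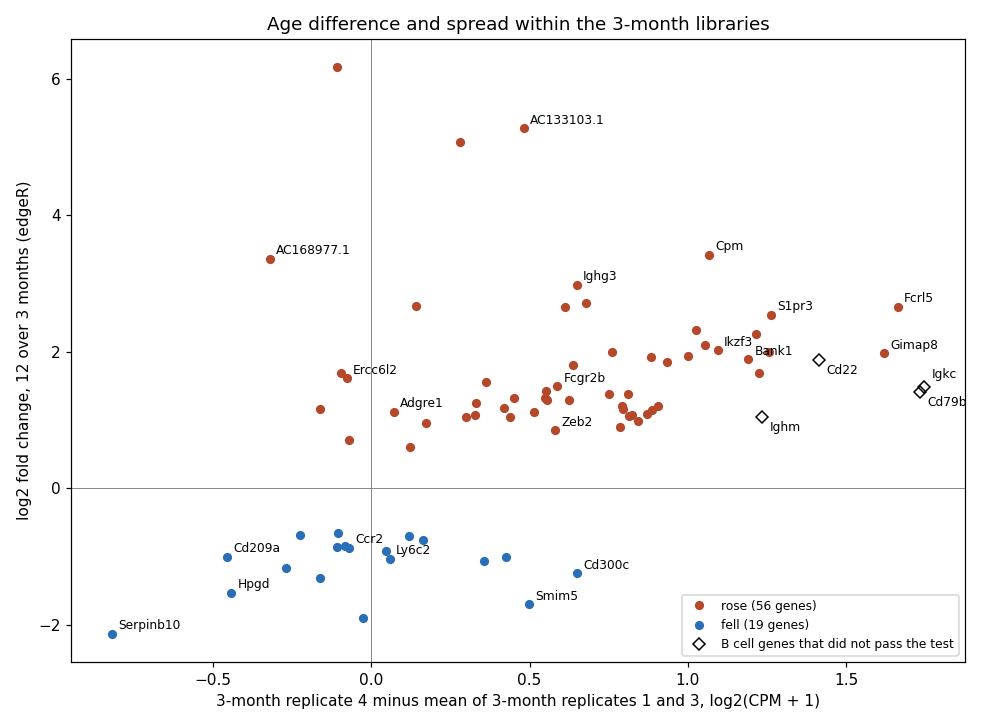
Log2 fold change between the ages (vertical axis) against the difference of 3-month replicate 4 from the other 3-month libraries in log2(CPM + 1) (horizontal axis), 1 point per gene that rose or fell, with 4 B cell genes that did not pass the test as open diamonds. Both axes use the 3-month libraries. Fcrl5, Bank1 and S1pr3 lie to the right beside the B cell genes, Adgre1 and Ercc6l2 near 0, and the fallen genes on both sides of 0.

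The cDC2 list held 3 of the fallen genes. Its sum was 2837, 2730 and 2704 CPM at 12 months and 4240, 3511 and 3814 CPM at 3 months, with every 12-month library below every 3-month library (means 2757 ± 70.4 and 3855 ± 366 CPM, SD, n = 3 each). Of 19 genes tested, 3 fell and none rose, 18 had negative fold changes, 8 were without overlap in the lower direction, and the median log2 fold change was -0.52. Cd209a, a DC-SIGN-like lectin of cDC2 and monocyte-derived cells, stood at 250, 159 and 156 CPM at 12 months and at 382, 440 and 299 CPM at 3 months (log2 -1.01, SE 0.18, adjusted p = 0.0262). Clec12a, an inhibitory lectin that senses dead cells, stood at 92.2, 107 and 129 CPM against 171, 247 and 213 CPM (log2 -0.92, SE 0.15, adjusted p = 0.0122). Cd7, a surface protein of the immunoglobulin superfamily, stood at 188, 184 and 196 CPM against 333, 276 and 329 CPM (log2 -0.70, SE 0.13, adjusted p = 0.0292). Sirpa, the CD172a receptor that marks cDC2, overlapped between the ages at 519, 391 and 365 CPM against 594, 421 and 508 CPM (adjusted p = 0.467). Irf4 did not pass either, with an adjusted p of 0.745. The B cell sum was higher in the same 12-month libraries. With that sum as a covariate, in the fit above, Cd209a had a log2 fold change of -0.35 (SE 0.32), Clec12a of -0.60 (SE 0.31) and Cd7 of -0.91 (SE 0.29), none past the threshold. Without the libraries of conflicting labels, which leaves the age effect to replicate 1 of each age, Cd209a had -0.58, Clec12a -0.86 and Cd7 -0.80.

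No gene of the cDC core list (16 tested, median log2 -0.14) or of the cDC1 list (16 tested, median -0.56) passed. The cDC core sum was nonetheless lower at 12 months without overlap, at 6375, 6407 and 6627 CPM against 6922, 7504 and 6681 CPM. The cDC1 sum was 2214, 2214 and 2235 CPM at 12 months and varied more at 3 months, with 2802, 4487 and 1744 CPM, so the ages overlapped. Clec9a, the cDC1 receptor for dead cells, stood at 71.4, 74.0 and 75.2 CPM against 126, 241 and 82.3 CPM (log2 -0.99, adjusted p = 0.456). None of the 16 genes of cDC2 maintenance and positioning passed, and Notch2 stood at 612, 725 and 610 CPM against 579, 778 and 711 CPM.

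The pDC list held 1 fallen gene of 10 tested. Smim5, a small membrane protein gene enriched in pDC, stood at 9.46, 11.1 and 22.5 CPM against 45.3, 35.2 and 56.8 CPM (log2 -1.70, SE 0.32, adjusted p = 0.0282). The pDC sums overlapped, with 1183, 1286 and 1676 CPM against 1696, 1377 and 2501 CPM. Siglech, the classical pDC surface marker, had 157, 136 and 264 CPM against 394, 238 and 617 CPM and an adjusted p of 0.464.

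Of 11 classical monocyte markers tested 2 fell and none rose, and of 14 nonclassical markers none passed. The classical monocyte sum was 1752, 2209 and 2088 CPM against 2825, 2609 and 2703 CPM, and the nonclassical sum was 802, 827 and 758 CPM against 1036, 991 and 1024 CPM, both without overlap (exact two-sided permutation p = 0.1 each, adjusted p = 0.25). Ly6c2, the antigen of inflammatory monocytes that some pDC and T cells also carry, stood at 75.5, 87.7 and 142 CPM against 183, 227 and 213 CPM (log2 -1.03, SE 0.18, adjusted p = 0.0169). Ccr2, the receptor that brings monocytes and their descendants out of the marrow, stood at 147, 128 and 134 CPM against 195, 331 and 242 CPM (log2 -0.87, SE 0.18, adjusted p = 0.0495). The B cell sum was higher in the same 12-month libraries. With it as a covariate Ly6c2 had a log2 fold change of -0.77 (SE 0.36) and Ccr2 of -0.34 (SE 0.34), neither past the threshold. Without the libraries of conflicting labels, which leaves the age effect to replicate 1 of each age, Ly6c2 had -1.25 and Ccr2 -0.38. In spleen macrophages the classical monocyte sum was 20906 to 30153 CPM. The markers of inflammatory monocytes Chil3, F13a1, Vcan and Thbs1 had too few counts to test, and Chil3 had 20.8 CPM in 12-month replicate 3 and at most 2.54 CPM elsewhere.

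The other fallen genes included lectins, chemokines and signalling genes of myeloid cells. Clec7a, the beta-glucan receptor Dectin-1, stood at 60.5, 51.0 and 33.2 CPM at 12 months and at 118, 113 and 95.6 CPM at 3 months (log2 -1.17, SE 0.20, adjusted p = 0.0169). It was the 1 gene of 24 pattern recognition genes that passed. Tyrobp, the DAP12 adaptor through which many myeloid receptors signal, stood at 541, 554 and 741 CPM against 1093, 917 and 1122 CPM (log2 -0.76, SE 0.14, adjusted p = 0.0256). Of 18 cytokine and chemokine genes tested, 2 fell and none rose. Ccl6 went from 68.5, 116 and 79.4 CPM to 36.8, 34.6 and 31.8 CPM (log2 -1.31, SE 0.22, adjusted p = 0.0165). Ccl5, a chemokine that attracts T cells and monocytes, went from 481, 421 and 425 CPM to 188, 226 and 326 CPM (log2 -0.84, SE 0.17, adjusted p = 0.0465). Hpgd, the enzyme that inactivates prostaglandins, stood at 23.7, 14.8 and 8.98 CPM against 47.8, 50.3 and 35.8 CPM (log2 -1.53). The serpin gene Serpinb10 had the lowest fold change (log2 -2.13, SE 0.38), at 13.8, 9.49 and 12.9 CPM against 41.0, 88.2 and 33.7 CPM. The remaining fallen genes were Mir99ahg (log2 -1.90), Cd300c (-1.25), Klra17 (-1.06), Khk (-1.01), Ramp1 (-0.87), Ppfia4 (-0.68) and Rasa4 (-0.65). Khk encodes ketohexokinase, the first enzyme of fructose breakdown, and Ramp1 a subunit of the receptor for the neuropeptide CGRP. The B cell sum was higher in the 12-month libraries here too. With it as a covariate, log2 fold changes were -0.92 (SE 0.40) for Clec7a, -0.94 (SE 0.29) for Tyrobp, -0.69 (SE 0.41) for Ccl6 and -0.68 (SE 0.36) for Ccl5, none past the threshold. Without the libraries of conflicting labels, the age effect rests on replicate 1 of each age. Log2 fold changes there were -0.93 for Clec7a, -0.86 for Ccl6, -0.98 for Hpgd, -1.54 for Serpinb10, -0.98 for Tyrobp and -1.32 for Ccl5. The annotation used here lists Clec7a and Serpinb10 as polymorphic pseudogenes.

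**Figure D4:**
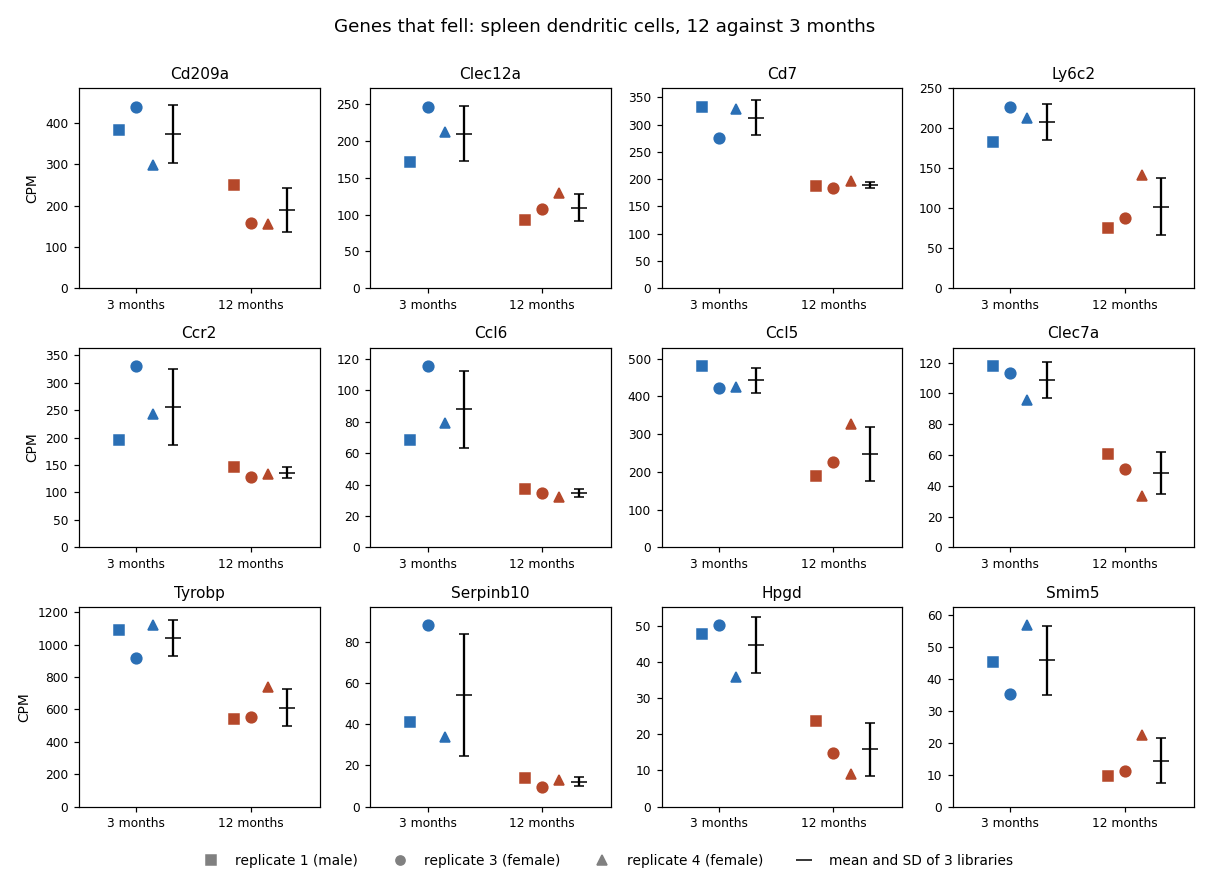
CPM (vertical axis, from 0) of 12 genes that fell, in the 3 libraries of each age, with mean and SD. Cd209a runs from 156 to 250 CPM at 12 months against 299 to 440 CPM at 3 months, and no gene shown has a 12-month library above a 3-month one.

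For antigen presentation, none of 14 MHC class II genes, 15 MHC class I genes or 18 costimulation and maturation genes passed. The MHC class II sum was 39669, 39425 and 40948 CPM against 48609, 46147 and 41015 CPM, without overlap but with the highest 12-month and the lowest 3-month library close together. H2-Aa, a class II alpha chain, was -0.20 in log2 units from the 3-month level, with SE 0.11, and did not pass (adjusted p = 0.507). Costimulation genes summed to 3003, 2906 and 2913 CPM against 3640, 3756 and 3535 CPM, and Cd83, a maturation marker, to 472, 539 and 519 CPM against 559, 818 and 600.2 CPM (adjusted p = 0.336). No gene passed among 27 type I interferon genes, 21 immediate early and heat shock genes, 22 cell cycle genes, 8 senescence inhibitors, 20 lysosomal, 18 cholesterol, 18 oxidative phosphorylation or 14 glycolysis genes. The lysosomal sum was lower at 12 months without overlap, at 7052, 7273 and 7850 CPM against 9097, 8309 and 8374 CPM. So were the sums of the cytokine and chemokine, chemokine receptor and adhesion, and Fc receptor and complement lists. The type I interferon, immediate early, cell cycle, oxidative phosphorylation and glycolysis sums overlapped. Of the cholesterol genes 9 were without overlap in the lower direction and 1 in the higher, with a median log2 fold change of -0.41. Their sums overlapped, with 1786, 1823 and 1876 CPM against 1743, 1792 and 1855 CPM. Of 15 interferon gamma genes 1 rose, the GTPase gene Gbp7, from 40.6, 35.6 and 48.0 CPM to 106, 110 and 76.2 CPM (log2 1.25, SE 0.20, adjusted p = 0.0122). Gbp7 belongs to a family of close paralogs whose reads counting can split, so its value is uncertain.

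Markers of other blood cells gave 2 patterns. Basophil and mast cell transcripts were low at both ages but summed to 1.44, 0.644 and 1.37 CPM at 12 months against 16.8, 9.91 and 26.6 CPM at 3 months. Mcpt8, a basophil protease, had no count in the 12-month libraries and 52 counts in the 3-month libraries, at least 17.9-fold lower against a floor of 3 counts over the 3 libraries of 12 months. Its adjusted p was 0.0626, and none of the 3 basophil and mast cell genes tested passed. Neutrophil markers were high in 1 library: Ngp had 98.5 CPM and Camp 37.0 CPM in 12-month replicate 3, and at most 1.95 CPM in the other libraries. No gene of the T cell, NK cell, neutrophil, eosinophil, erythroid, platelet or stroma lists passed.

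The age difference was then set against that in spleen macrophages, sorted from the same organ (4 libraries at each age, all female). Of 14409 genes, the 2 age effects differed in 1 (0.00694%), with 1034 at an unadjusted p under 0.05. That gene was Fcgr2b. In macrophages it averaged 235 CPM at 12 months and 291 CPM at 3 months (log2 -0.26, SE 0.17), and the difference of the log2 fold changes was 1.71 (SE 0.24, adjusted p = 0.0162). The count was 39 without 3-month dendritic cell replicate 4, 11 without 12-month macrophage replicate 4 and 3 without 12-month dendritic cell replicate 4. Without 3-month dendritic cell replicate 3 the 1 gene called was another, with a lower age effect in dendritic cells. It was 0 without dendritic cell replicate 1 of either age, 12-month macrophage replicate 2, or 3-month macrophage replicate 1, 2 or 3, each left out alone, with 817 to 1066 genes at an unadjusted p under 0.05. It was also 0 without both libraries of conflicting labels, which leaves 1 dendritic cell library at 3 months, with 944 such genes. Without dendritic cell replicate 1 of either age, the sex term takes up the other male library here too. Adgre1 came next after Fcgr2b by size of p among named genes, with a difference of 1.33 (SE 0.24, adjusted p = 0.0784). Of the 56 risen genes, 50 could be fitted in macrophages, and their median log2 fold change there was 0.23, against 0.006 over all genes fitted. Of these 50, 39 had a positive fold change in macrophages, none past the threshold. The B cell sum in macrophages overlapped between the ages, at 1676 to 5611 CPM at 12 months and 1686 to 3460 CPM at 3 months. Their immunoglobulin constant sum averaged 6213 ± 3427 CPM at 12 months against 2637 ± 1233 CPM (SD, n = 4 each), and it also overlapped, at 2774 to 10348 CPM against 1397 to 4130 CPM. For the 19 fallen genes the median in macrophages was -0.15, and 11 of them had a negative fold change there. Clec7a had 0.19 (SE 0.17), Ccl6 0.47 (SE 0.23) and Hpgd -0.81 (SE 0.19) in macrophages, none past the threshold.

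Against dendritic cells sorted from the tumor with the same markers (3 libraries at 12 months, 4 at 3 months), no gene of 13981 (0%) differed in its age effect. An unadjusted p under 0.05 was reached by 778 genes, and DESeq2 called 3. The count was 2 without 3-month spleen replicate 4 and 1 without 12-month tumor replicate 2. The B cell sum was 223 to 475 CPM in the 12-month and 278 to 482 CPM in the 3-month tumor libraries. Fcgr2b averaged 1149 CPM at 12 months and 1365 CPM at 3 months there, and the difference of its log2 fold changes was 1.74 (SE 0.41, adjusted p = 0.796). In the tumor Cd209a averaged 401 ± 395 CPM (SD, n = 3) at 12 months against 181 ± 83.3 CPM (SD, n = 4) at 3 months (log2 1.16, SE 1.09). The median log2 fold change in the tumor was 0.05 over the 41 risen genes and 0.16 over the 19 fallen genes that could be fitted there. Of these, 24 risen genes had a positive and 7 fallen genes a negative fold change in the tumor.

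**Figure D5:**
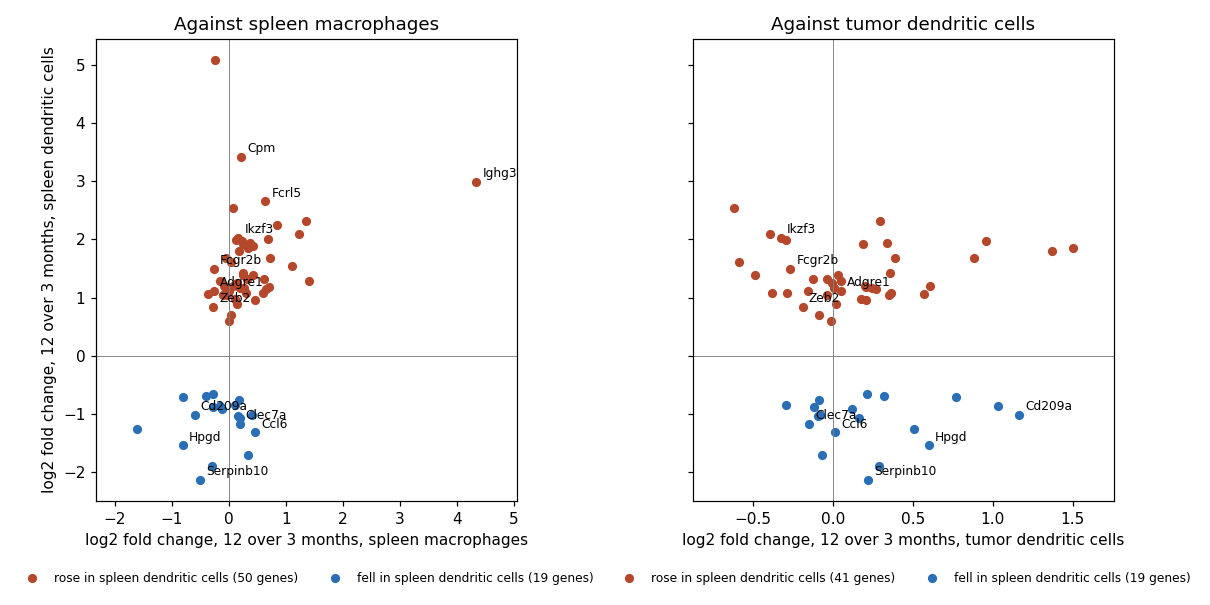
Log2 fold change between the ages in spleen dendritic cells (vertical axis) against that in spleen macrophages (left) or tumor dendritic cells (right), for the genes that rose or fell in spleen dendritic cells and could be fitted in the other sort. Medians of the risen and fallen genes on the horizontal axes are 0.23 and -0.15 in macrophages and 0.05 and 0.16 in the tumor. Of the risen genes, 39 of 50 lie above 0 in macrophages and 24 of 41 in the tumor. Of the fallen genes, 11 of 19 lie below 0 in macrophages and 7 of 19 in the tumor.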

How the data were processed

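Smart-seq2 RNA libraries of 1000 sorted cells were measured. Per the submitters' processing notes, the authors used STAR 2.5.3 and featureCounts on mm10, and deposited 1 table of raw counts over 49480 gene symbols. The sources used here do not give the annotation release, strand setting or multi-mapping rule, so overlapping and paralogous genes are uncertain. Positions came from GENCODE M21 (GRCm38), which may differ from the authors' annotation. Samples were grouped by title, and 0 columns fell outside the labels.

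Genes passing filterByExpr were scaled by TMM and fitted with edgeR 4.0.16 (limma 3.58.1, R 4.3.3) by robust quasi-likelihood with sex and age, on 6 libraries, leaving 3 residual degrees of freedom. P-values were two-sided. Differences of age effects were interaction terms in fits with spleen macrophages or tumor dendritic cells. List sums were compared by exact permutation (scipy 1.17.1). The fit was tested on simulated counts. Alternatives included DESeq2 1.42.0. Named genes had at least 10 CPM in the higher age, ages that did not overlap, and the 12 largest fold changes or 6 smallest p per direction, plus up to 4 called and 2 abundant uncalled members of each of 38 lists and the sort genes. Zbtb46, Ms4a1, Cd79a, Pax5, Tbx21, Ighg2b, Jchain, Xcr1, Clec9a, Irf4, Mcpt8, Chil3, F13a1, Vcan, Thbs1, Ngp, Camp, Ets1, Bach2, Gimap7, Gimap8, Ramp1, Ppfia4, Rasa4, Klrd1 and Klrc1 were chosen after their values were seen. The comparison and lists were chosen with earlier results of these data known. The floor covers counting error alone, as these libraries have no molecular identifiers. Replicates of an age all differed by more than counting noise, with chi-square per degree of freedom of 11.3 to 18.2.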

Additional observations from a re-analysis of the deposited data

Results flagged for a closer look

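Fcgr2b differed in its age effect between 2 sorts of the spleen by a test of the difference itself: the log2 fold change of 12 over 3 months was 1.71 higher in dendritic cells than in macrophages (SE 0.24, edgeR interaction term, adjusted p = 0.0162). It was higher in all 3 of the 12-month dendritic cell libraries than in any 3-month library, while the macrophage means were 235 CPM at 12 months and 291 CPM at 3 months. The B cell marker sum differed without overlap between the ages in dendritic cells and overlapped in macrophages, while the immunoglobulin constant sum was on average higher at 12 months in both sorts (8510 ± 1842 against 3556 ± 2230 CPM in dendritic cells, n = 3 each, and 6213 ± 3427 against 2637 ± 1233 CPM in macrophages, n = 4 each, SD). Their part in the difference was not tested. No gene was called, Fcgr2b included, without dendritic cell replicate 1 of either age, 12-month macrophage replicate 2, or 3-month macrophage replicate 1, 2 or 3, each left out alone, nor without the 2 libraries of conflicting labels, which leaves 1 dendritic cell library at 3 months. Without 3-month dendritic cell replicate 3 another gene was called in its place.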

How the results depend on the processing

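The count of 75 genes became 425 with no low-count filter, 303 with DESeq2, 47 without the sex covariate, 0 in a fit of all 4 dendritic cell groups (1117 at an unadjusted p under 0.05), 342 without the 2 libraries of conflicting labels and 0 with these counted as 12 months, both with 1 library left at 3 months that is assumed to vary like the 12-month ones, and 11 with the B cell covariate. It ran from 0 to 444 with each library left out, with 2 libraries at that age. With the replicate block it was 153. Same-numbered libraries had residual correlations of 0.07, -0.01 and 0.08, not over 0.1 in every pair, so the numbers were not taken as pairs. The difference from macrophages, 1 gene, was 119 with no filter, 48 with DESeq2, 1 with the replicate block, 0 to 39 with each library left out and, chosen after seeing the data, 0 without the libraries of conflicting labels, again with 1 dendritic cell library at 3 months. The difference from tumor dendritic cells, 0 genes, was 50 with no filter, 3 with DESeq2, 0 to 2 with each library left out and, chosen after seeing the data, 4 without replicate 2 of both ages, whose macrophage markers were high. The causes were not tested. Ppt1, a lysosomal enzyme gene of the cDC1 list, reversed from a log2 fold change of -0.45 to 1.91 with the B cell covariate. Transcripts under 1 CPM rest on few counts. This limits the eosinophil, stroma, erythroid, platelet and basophil lists most, with 1 to 3 genes tested in each.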

Other observations

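Of the 19 fallen genes, 3 lay within 534 kb of chromosome 6 (chr6:129342691-129876672, GRCm38), a cluster of C-type lectin and killer cell lectin-like receptor genes: Clec12a, Clec7a and Klra17. Klra17, a Ly49-family receptor, stood at 34.8, 35.1 and 63.5 CPM at 12 months and at 79.7, 90.6 and 109 CPM at 3 months (log2 -1.06, SE 0.21). The interval was chosen after seeing these genes and is bounded by fallen genes. Of its 17 tested genes, 16 had negative fold changes, against 6331 of all 12650 genes tested. Most of the 17 overlapped between the ages. Klrd1, which encodes CD94, stood at 221, 235 and 202 CPM against 350.0, 279 and 317 CPM and did not pass (log2 -0.50, SE 0.14, adjusted p = 0.125). Klrc1 was the exception, with a log2 fold change of 0.16 (SE 0.59). Genes of these families are close paralogs, so single values are uncertain.

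The 3-month libraries also differed among themselves outside B cell genes. The type I interferon list summed to 1827, 2140 and 1289 CPM in 3-month replicates 1, 3 and 4 and to 1651, 1706 and 1579 CPM at 12 months. None of its 27 genes was highest in 3-month replicate 4 among the 3-month libraries. All 10 pDC genes tested were highest there.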
